A study of Homo sapiens with 24 samples.

Results

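H1299 is an established human non-small cell lung carcinoma line that lacks p53. Clone Δ133p53β10 is 1 clonal H1299 line that carries a plasmid for the Δ133p53β isoform, a short form of p53 that starts inside the DNA-binding domain and has an alternative carboxyl end. It was compared with H1299 cells that received the vector only, with 4 libraries of poly(A) RNA from each line (n = 4 each), 8 of the 23 libraries analysed. The other 15 libraries came from clones Δ133p53α1, Δ133p53α2, Δ133p53α8 and Δ133p53β5, which were used for the common estimate of spread and for 1 further comparison. The comparison asked which genes differed in cells given Δ133p53β. Since the isoform was studied in 1 clone here, an effect of the isoform and a property of the clone cannot be told apart. How the replicate libraries were grown was not given, so p-values measure the spread between these libraries only.

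Full-length p53 is a transcription factor that switches on genes for cell cycle arrest and cell death. Δ133p53 isoforms lack its transactivation domains and are known to change the output of p53 and of related factors. In a p53-null cell the isoform is present without full-length p53. Genes were therefore read by role: p53 target genes, ligands, receptors, transcription factors, matrix and adhesion genes, and metabolism.

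The β10 libraries held 21720974 to 25295008 counts and the control libraries 21722129 to 25381731. Levels are given as CPM, counts scaled by library size to a common total. In each line, library 1 differed from the other 3 in the sign of its trend with gene length. Across genes, the deviation of a library from the mean was correlated with gene length, with Spearman rho of 0.24 in β10 library 1 against -0.26 to -0.19 in β10 libraries 2 to 4. In control libraries 2 to 4 it was 0.18 to 0.21, against -0.13 in control library 1. β10 library 1 and control libraries 2 to 4 are called the positive set below, and β10 libraries 2 to 4 and control library 1 the negative set. This trend therefore runs almost together with the comparison, and its part in the results was not tested beyond the values within each set given here. In bulk RNA, fewer cells of a type and less RNA per cell cannot be told apart. Summed counts over 13 lung epithelial and carcinoma markers were 97939 to 186316 in β10 and 92970 to 172763 in control. The list also holds VIM and CDH2, which are mesenchymal genes. SFTPC, SCGB1A1 and KRT5 were at 0 in both lines. TP63 was at 0 in every β10 library but not in every control library, and CDH1 was at 0 in every control library but not in every β10 library. The 5 immune markers summed to 2 to 13 counts in β10 and 1 to 3 in control, with PTPRC and CD3E at 0 in both. The 5 endothelial markers summed to 10 to 21 and 5 to 13 counts, the 7 fibroblast markers to 20 to 31 and 13 to 40, and the 7 neuronal and neuroendocrine markers to 37 to 57 and 76 to 180.

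Of 18295 genes tested, 322 were higher in β10 than in control (1.76% of the genes tested) and 544 were lower (2.97%). A gene was called when its adjusted p was under 0.05 and its log2 fold change was 1.5 or more in size. Genes that rose included STAT6, a signal transducer of interleukin signalling, NR0B1, an orphan nuclear receptor, INSR, the insulin receptor, and MAGEA1, a cancer-testis antigen. Genes that fell included SOX9 and SOX4, both transcription factors, NOTCH3, a Notch receptor, and IL13RA2, a decoy receptor for interleukin 13. The higher genes comprised 186 protein coding genes, 84 lncRNAs and 40 pseudogenes, and the lower genes 443, 75 and 19. Among the genes tested, 12976 were protein coding, 3489 were lncRNAs and 1328 were pseudogenes. Fold changes over 3 on the log2 scale were seen for 75 higher and 164 lower genes. The median log2 fold change of all genes tested was -0.05, and the median size was 0.47.

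**Figure D1:**
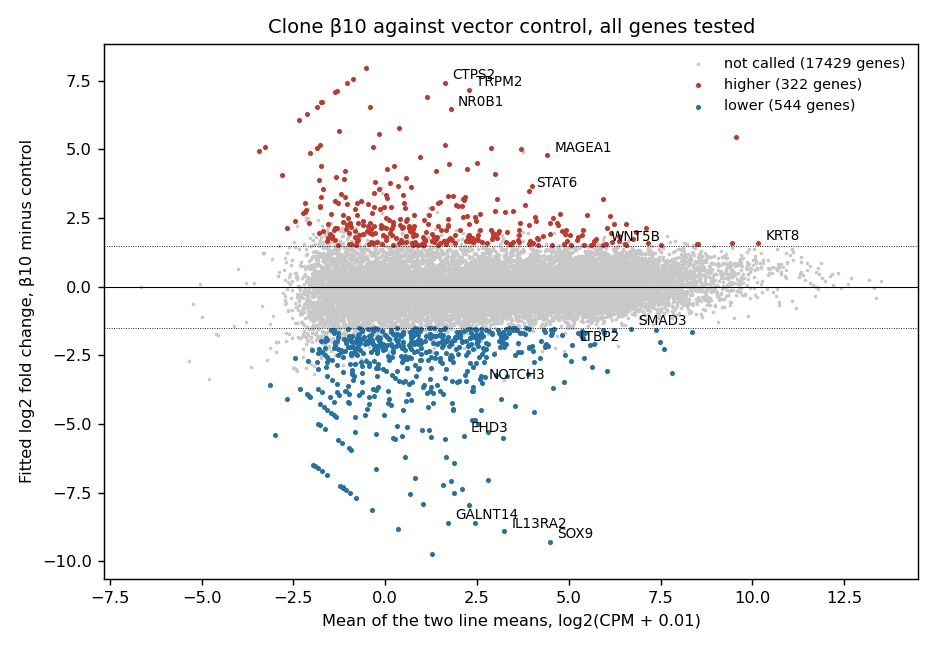
Fitted log2 fold change of β10 minus control (y axis) against the mean level of both lines as log2(CPM + 0.01) (x axis), 1 point per gene tested. The 322 higher genes are red, the 544 lower genes blue and other genes grey. Dotted lines mark the fold threshold of 1.5 on the log2 scale, and most called genes lie at low to moderate levels.

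When the library set was added to the model, 284 genes were higher (1.55%) and 670 lower (3.66%). Of the 322 higher genes 219 were called again, and of the 544 lower genes 484. Within the positive set, where β10 library 1 was set against control libraries 2 to 4, 144 genes were higher and 154 lower. Within the negative set, where β10 libraries 2 to 4 were set against control library 1, 128 were higher and 280 lower. In both of these the line with 1 library was assumed to vary like the others. By the difference in mean log2 CPM, the sign was the same in both sets for 316 of the 322 higher genes and 542 of the 544 lower genes. These genes had been selected on the same 8 libraries. An edgeR test of whether the effect differed between the sets rests on β10 library 1 alone in the positive set and control library 1 alone in the negative set. It cannot tell whether effects differed, and no conclusion is drawn from it. Leaving out both first libraries gave 1103 higher and 917 lower genes, which compares libraries of different sets only. The number of higher genes was 643 without β10 library 1 and 213 without β10 library 3, and the number of lower genes was 336 without control library 3.

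**Figure D2:**
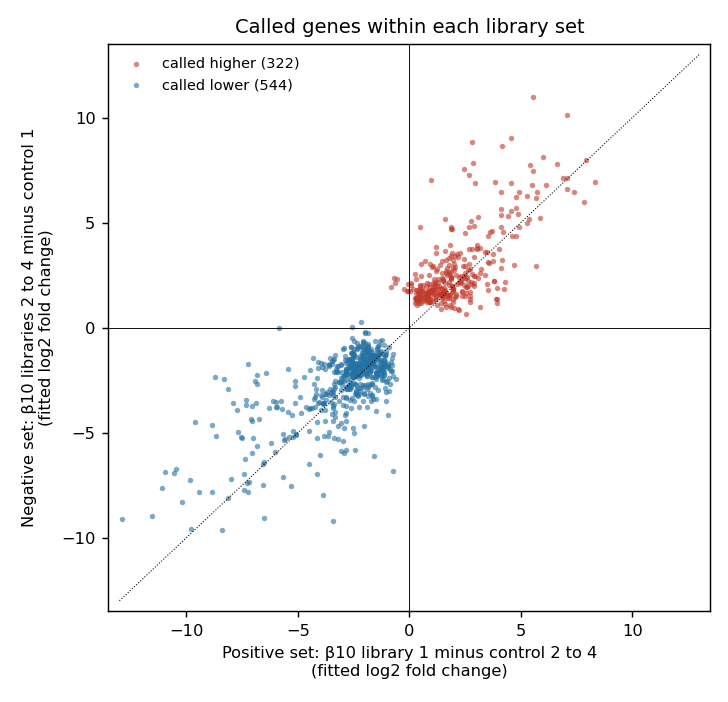
Fitted log2 fold change of the called genes within the positive set (x axis, β10 library 1 minus control libraries 2 to 4) and within the negative set (y axis, β10 libraries 2 to 4 minus control library 1). Points at the lower left and upper right have the same sign in both sets. Higher genes are red and lower genes blue. By the difference in mean log2 CPM, not the fitted values plotted, 316 of 322 higher and 542 of 544 lower genes kept their sign in both sets. The dotted line marks equal values.

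Groups that did not overlap, with every β10 library on 1 side of every control library, were found for 235 of the higher genes and 492 of the lower genes. Over all genes tested this was so for 2133 genes (11.7%). Some of the called genes were close to silence in 1 of the lines. The share of such genes among all genes tested was not computed. Of the lower genes, 87 had 3 counts or fewer in every β10 library, 15 of them with 0 in every one. Of the higher genes, 41 had 3 counts or fewer in every control library, 12 of them with 0. For 23 of the 87 genes all 15 libraries of the other clones also had 3 counts or fewer. None of the 41 genes was at 3 counts or fewer in all 15 (0 genes).

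Upstream sequence is shown for 2 genes that fell to near silence or to low levels (EHD3, NOTCH3) and 2 that were near silence in control and present in β10 (NR0B1, GAP43). The 250 bases before the RefSeq start of each gene are written 5′ to 3′ on the strand of the gene (GRCh38.p14). Each CG, a site at which DNA can be methylated, is in capitals. No methylation was measured. The windows are chr2:31233902-31234151 (plus strand) for EHD3, chr19:15200996-15201245 (minus) for NOTCH3, chrX:30309391-30309640 (minus) for NR0B1 and chr3:115623260-115623509 (plus) for GAP43.
EHD3: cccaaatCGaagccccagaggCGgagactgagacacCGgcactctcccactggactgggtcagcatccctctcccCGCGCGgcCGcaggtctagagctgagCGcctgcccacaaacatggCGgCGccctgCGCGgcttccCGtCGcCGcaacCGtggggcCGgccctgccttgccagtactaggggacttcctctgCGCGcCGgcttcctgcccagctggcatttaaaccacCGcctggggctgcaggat
NOTCH3: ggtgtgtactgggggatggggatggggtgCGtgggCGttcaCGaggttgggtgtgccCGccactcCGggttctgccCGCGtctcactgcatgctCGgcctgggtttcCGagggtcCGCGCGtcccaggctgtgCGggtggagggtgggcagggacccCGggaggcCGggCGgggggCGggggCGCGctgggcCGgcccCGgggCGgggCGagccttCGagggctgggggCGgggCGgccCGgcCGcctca
NR0B1: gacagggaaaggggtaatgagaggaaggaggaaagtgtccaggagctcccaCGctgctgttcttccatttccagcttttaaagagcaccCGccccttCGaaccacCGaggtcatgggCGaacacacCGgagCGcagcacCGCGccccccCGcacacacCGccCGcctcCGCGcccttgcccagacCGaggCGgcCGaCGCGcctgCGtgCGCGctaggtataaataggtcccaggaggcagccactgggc
GAP43: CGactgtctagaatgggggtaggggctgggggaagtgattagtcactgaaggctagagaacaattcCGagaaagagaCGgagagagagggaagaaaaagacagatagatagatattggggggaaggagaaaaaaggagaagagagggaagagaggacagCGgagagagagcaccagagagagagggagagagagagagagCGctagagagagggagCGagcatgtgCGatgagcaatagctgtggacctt
The EHD3 window holds 21 CG and the NOTCH3 window 28. The NR0B1 window holds 22 and the GAP43 window 7. Among 27305 RefSeq windows of this length, 29.8% hold at least as many as EHD3, 15.5% as NOTCH3, 27.6% as NR0B1 and 58.4% as GAP43. These windows include those of genes not tested. Their median is 11 CG, against 21 for the genes tested that have a window. A comparison over all called genes is void, since windows were at hand for only 63.6% of the genes tested.

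The 15 genes with the highest fold changes that had the same sign in both sets included receptors, channels and enzymes. NR0B1, which represses steroidogenic gene programmes, was measured at 4.08, 6.34, 8.35 and 8.32 CPM in β10 and at 0.0388, 0.087, 0.115 and 0.0432 CPM in control. The lowest β10 library was far above the highest control library, and β10 library 1 was the lowest of its line. The ratio of summed counts was 93.9 (95% counting interval 45.3 to 235, adjusted p = 1.23e-09). CTPS2, an enzyme of CTP synthesis, was at 6.24, 5.43, 3.72 and 9.19 CPM in β10 and had 0, 0, 2 and 1 counts in control. TRPM2, a cation channel opened by oxidative stress, was at 4.16, 8.45, 21.6 and 4.28 CPM in β10 and at 0 to 0.13 CPM in control. CRACR2A, a calcium sensor that regulates store-operated channels, was at 3.41 to 5.45 CPM against 0 to 0.0766. These 4 genes were called in both sets, with the library set as a term and without any 1 β10 or control library.

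Genes with 0 counts in every control library allow a lower bound only, from a floor of 3 counts per library. AKR1C3, an aldo-keto reductase of steroid and prostaglandin metabolism, was at 0.749, 1.2, 1.02 and 0.166 CPM in β10 and so at least 6.38-fold higher. PNPLA4, a lipase, was at 1.33, 1.92, 2.24 and 0.0416 CPM and at least 11.3-fold higher. WNT5A, a Wnt ligand of non-canonical signalling, was at 1.25, 0.913, 0.102 and 0.0416 CPM and at least 4.69-fold higher. In these 3 genes the spread within β10 was wide, with library 4 the lowest of the line. LRMDA, a gene of melanocyte differentiation, was more even, at 0.291 to 0.509 CPM, and at least 3.54-fold higher. LTF, which encodes lactoferrin, was at least 3.05-fold higher, but β10 library 4 had no count and the groups overlapped at 0.

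Among the genes that fell the furthest, SOX9, a transcription factor of progenitor and cartilage fate, was at 0, 0.048, 0 and 0.208 CPM in β10 and at 53.9, 29.5, 72.5 and 24.4 CPM in control. The log2 fold change was -9.28 (SE 0.67, adjusted p = 6.21e-08), and SOX9 was at 0 to 0.0549 CPM in the other clones. GALNT14, which starts O-linked glycosylation, had 0, 0, 0 and 1 counts in β10 and 168, 179, 130 and 158 in control. PIK3CG, a catalytic subunit of PI3 kinase, was at 0 to 0.0832 CPM in β10 and at 7.09 to 14.3 CPM in control. MGMT, which removes alkyl groups from guanine, had 1 count in 1 of the 4 β10 libraries and was at 4.77, 2.35, 3.26 and 2.2 CPM in control. The control to β10 ratio of MGMT was 283 with a counting interval of 50.4 to 11205. It was the only called member of 19 DNA alkylation and mismatch repair genes (0 higher, 1 lower, median -0.15). RIPK4, a kinase of epithelial differentiation, had no count in any β10 library and was at 1.69 to 4.42 CPM in control, and so at least 18.6-fold lower. BMP7, a bone morphogenetic protein, was likewise at 0 in β10 and at least 11.3-fold lower.

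**Figure D3:**
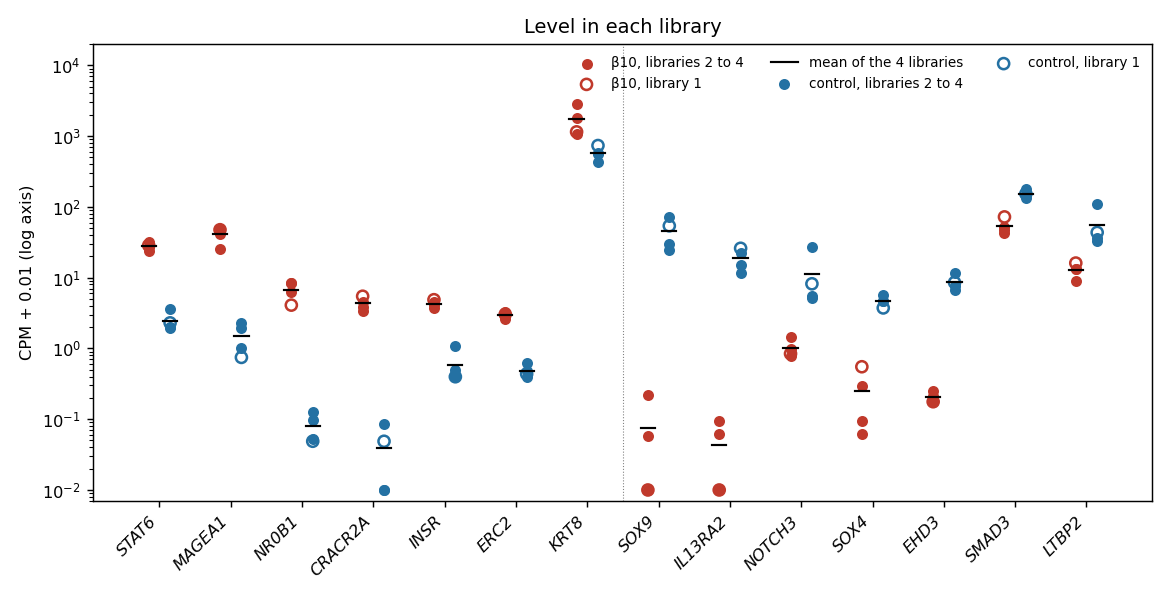
CPM + 0.01 on a log axis for 14 genes (x axis) in each library of β10 (red, left) and control (blue, right), with higher genes left of the dotted line and lower genes right of it. Open symbols mark library 1 of each line and black bars the mean of 4 libraries. In each of these 14 genes, which were picked as examples, the β10 and control libraries do not overlap, library 1 included. This was so for 235 of the 322 higher genes and 492 of the 544 lower genes. Over all genes tested it was so for 2133 (11.7%).

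Of 40 p53 target genes 35 were tested, 0 were higher and 1 was lower, near the shares over all genes (1.76% and 2.97%), with a median log2 fold change of -0.20 (-0.05 for all genes tested). These shares over all genes are the background for every gene list described here. The called gene was IGFBP3, a binding protein of insulin-like growth factors, at 12, 10, 5.55 and 7.19 CPM in β10 and at 29.8, 91.5, 2.38 and 106 CPM in control. Control library 3 lay below all β10 libraries, so the groups overlapped. No cell cycle gene of 30 was called (0 higher, 0 lower, median 0.03) and no DNA replication gene of 30 (0 higher, 0 lower, median 0.19). Control library 3 was also low for proliferation genes: CDC20, an activator of mitotic exit, was at 228 CPM there against 537 to 600 CPM in the other control libraries.

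Of 36 Wnt genes tested, 4 were higher, all ligands or agonists, and 2 were lower, both antagonists. Over all genes tested the shares were 1.76% and 2.97%. The median of the list was -0.35, with 12 genes above 0, and the activity of the pathway was not tested. RSPO4, a secreted agonist of Wnt receptors, was at 1.08, 2.4, 2.7 and 1.87 CPM in β10 and at 0.0775, 0.087, 0.345 and 0.0432 CPM in control (log2 fold change 3.78, SE 0.48, adjusted p = 2.44e-05). WNT5A is described above, and WNT7B, a ligand of canonical signalling, was higher by 3.07. WNT5B, a further ligand, was at 58.4, 98.9, 134 and 71 CPM against 42.6, 33.9, 13.6 and 35.5 CPM. Its log2 fold change of 1.53 fell to 1.10 and below the threshold with the library set as a term, and the call was lost without β10 library 3 or control library 3 (1.29 to 1.74 over single libraries left out). SFRP1, a secreted Wnt antagonist, was at 0 to 0.208 CPM in β10 and at 1.22 to 2.87 CPM in control, lower by a log2 fold change of -4.22. NKD2, an intracellular antagonist, was lower (-2.19), and was not called without both first libraries.

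No TGF-β or BMP gene was higher (0 of 39 tested), and 6 were lower. The median of the list was -0.35. The 6 were the ligands BMP7 and TGFB2, the latent TGF-β binding proteins LTBP1 and LTBP2, the signal transducer SMAD3 and the inhibitory helix-loop-helix factor ID4. LTBP2 was at 16.1, 13.1, 13.2 and 8.86 CPM in β10 and at 43.5, 36.6, 110 and 32.5 CPM in control (log2 fold change -2.12, SE 0.37, adjusted p = 0.000711). It was -1.89 within each set and was called in neither. SMAD3 was at 72.1, 46.7, 42.4 and 51.5 CPM in β10 and 153, 176, 149 and 135 CPM in control. Its log2 fold change of -1.53 was just past the threshold, and was -1.41 with the library set as a term. The SMAD3 call was lost without β10 library 2 or 3 or control library 2 (-1.66 to -1.42). TGFB2 was at 127, 29, 13 and 36 counts in β10 against 162, 245, 225 and 240, with β10 library 1 nearest to control. ID4 was at 0.0383 CPM in control library 3, within the β10 range of 0 to 0.102, so its groups overlapped. Of the list, 1 gene was called lower within the positive set and 4 within the negative set.

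Of 27 Notch pathway genes tested, 0 were higher and 4 lower (NOTCH3, JAG1, MFNG, DTX3), with a median of -0.59. NOTCH3 was at 0.832, 1.44, 0.764 and 0.956 CPM in β10 and at 8.18, 5.48, 26.7 and 5.14 CPM in control. The log2 fold change was -3.50 (SE 0.49, adjusted p = 7.28e-05), and -3.89 and -2.95 within the positive and negative sets. JAG1, a Notch ligand, was at 3, 0.961, 0.865 and 2.16 CPM against 4.5, 7.83, 11.5 and 7.65 CPM, lower by -2.16. MFNG, a glycosyltransferase that modifies Notch receptors, was not called without β10 library 1, 2 or 4 or control library 1, 2 or 4 (-2.14 to -1.60). DTX3, a ubiquitin ligase of the Deltex family, was not called without β10 library 1, 2 or 4 or control library 1 or 3 (-2.24 to -1.36). NOTCH2, the most abundant member by CPM, was at 17.1 to 125 CPM in β10 and 46.2 to 159 CPM in control and was not called.

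Of 30 JAK-STAT and interleukin receptor genes tested, 1 was higher and 3 were lower (median -0.33). STAT6, which acts downstream of interleukins 4 and 13, was at 28.5, 31.4, 27 and 23.7 CPM in β10 and at 2.29, 1.96, 3.6 and 1.99 CPM in control. The libraries of each line lay close together, and the log2 fold change was 3.49 (SE 0.25, adjusted p = 1.23e-08), with 3.50 and 3.58 within the sets. IL13RA2 had 0, 0, 1 and 2 counts in β10 and 670, 265, 590 and 352 in control, a control to β10 ratio of 565 (193 to 2744). IL7R, the interleukin 7 receptor, was at 0 to 0.208 CPM against 0.46 to 1.73 CPM, and IL1R1, the signalling interleukin 1 receptor, at 0.56 to 2.41 CPM against 3.33 to 11.8 CPM. Neither overlapped between the lines. Of 19 NF-κB and cytokine genes, 2 were higher (ICAM1, CXCL1) and 2 lower (TNFAIP2, LIF), with a median of 0.13. ICAM1, a leukocyte adhesion receptor, was at 12.7, 13.4, 20.4 and 17.2 CPM in β10 against 4.19, 4.96, 6.86 and 5.66 CPM. Its log2 fold change of 1.55 was at the threshold, was just under it with the library set as a term, and the call was lost without β10 library 3 or control library 1 (1.43 to 1.73). CXCL1, a neutrophil chemokine, was within 1.03 to 2.04 over single libraries left out and lost its call without β10 library 3 or 4 or control library 2, 3 or 4. LIF, a cytokine of the interleukin 6 family, was at 4.74 to 6.57 CPM in β10 and 13.4 to 44.9 CPM in control (log2 fold change -2.18, SE 0.31, adjusted p = 8.6e-05). Of 29 interferon response genes 1 was higher, GBP1, a guanylate-binding GTPase, and 0 were lower (median -0.15). The GBP1 call was lost without β10 library 1, 2 or 4 or control library 2, 3 or 4 (1.31 to 1.67).

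Of 21 receptor tyrosine kinase genes tested, 1 was higher and 3 were lower, with a median of -0.31. INSR was at 4.87, 4.47, 3.67 and 4.07 CPM in β10 and at 0.388, 0.479, 1.07 and 0.389 CPM in control. The difference was 2.86 on the log2 scale (SE 0.39, adjusted p = 6.36e-05), and it was 2.89 within the positive and 3.37 within the negative set. ROR2, a receptor for WNT5A, was at 0.874, 1.3, 1.68 and 0.125 CPM against 4.26, 6.88, 5.75 and 6.4 CPM, lower by -2.56. PDGFRB, a receptor of platelet-derived growth factor, was lower by -1.98, and ERBB3, a receptor of neuregulins, by -1.84. The ERBB3 call was lost without control library 3 (-1.24). AXL, a receptor for GAS6, at 1655 to 2171 CPM in β10 and 772 to 1409 CPM in control, had a log2 fold change of 0.66 that was under the fold threshold.

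Of 6 genes for cell surface proteins, 4 could be tested and none was called (0 higher, 0 lower, median -0.51). This median changed sign with the library sets. It was 0.02 with the library set as a term, 0.26 within the positive set and -0.26 within the negative set. Without both first libraries it was -0.84. EGFR was at 134, 44.5, 27.3 and 62.7 CPM in β10 and at 45.4, 132, 92.9 and 113 CPM in control. TFRC, the transferrin receptor, was at 396, 160, 115 and 275 CPM against 147, 365, 73.9 and 382 CPM, and MET at 76, 27.3, 22.2 and 37.4 CPM against 40.7, 67.3, 64.8 and 57.4 CPM. In EGFR and MET β10 library 1 was the highest and control library 1 the lowest of its line, and the lines overlapped. The fitted differences were -0.51 (SE 0.53) for EGFR, -0.03 (SE 0.60) for TFRC and -0.50 (SE 0.40) for MET. ITGA5, an integrin chain of the fibronectin receptor, did not overlap, at 34.2 to 59.3 CPM against 62.7 to 98.6 CPM (-0.72, SE 0.24, adjusted p = 0.064). FLT1 and ACVRL1 did not pass the filter on low counts. Of 26 MAPK output genes, 0 were higher and 2 were lower, the immediate early transcription factors EGR1 and FOS (median -0.49). EGR1 was at 1.21 to 3.5 CPM in β10 and at 2.21, 9.44, 21.9 and 10.6 CPM in control, FOS at 1.22 to 3.37 CPM and 1.67, 8.53, 22 and 9.42 CPM. In both genes control library 1 lay within the β10 range. The EGR1 call was lost without control library 3 (-1.65), and the FOS call without β10 library 2, 3 or 4 or control library 3 (-2.80 to -1.72).

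Of 17 cadherin and protocadherin genes tested, 0 were higher and 5 were lower, and the median of -1.22 was the lowest of all lists, with 2 genes above 0. CELSR1, a seven-pass cadherin of planar cell polarity, was at 9.9, 7.06, 7.23 and 5.36 CPM in β10 and at 21.4, 28.7, 56 and 26.6 CPM in control. It was called in both sets (-1.91 and -1.71). CELSR2 was near the threshold (-1.51) and uncalled with the library set as a term (-1.29). The CELSR2 call was lost without β10 library 1 or 3 or control library 2, 3 or 4 (-1.68 to -1.33). The clustered protocadherins PCDHB2, PCDHB5 and PCDHB11 were lower by -1.78, -1.82 and -1.94, and PCDHB2 lost its call without β10 library 4 (-1.47). The list's median was -0.61 within the positive and -1.18 within the negative set. Of 25 integrin and laminin genes, 1 was higher and 3 were lower (median -0.55). LAMC3, a laminin γ chain, was at 0.333, 0.528, 0.56 and 0.291 CPM against 3.26, 3.22, 3.91 and 3.07 CPM (log2 fold change -2.97, SE 0.32, adjusted p = 2.85e-06). The integrin chains ITGB2 (1.97), ITGB6 (-2.29) and ITGB7 (-1.52) each lost the call without any 1 of at least 6 libraries, the exceptions being β10 library 4 for ITGB2, β10 library 1 and control library 4 for ITGB6, and β10 library 4 and control library 1 for ITGB7 (1.84 to 2.33, -2.93 to -2.06 and -1.72 to -1.24).

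Of 28 neural adhesion and synapse genes tested, 4 were higher and 7 lower, with a median of -0.72. ERC2, an active zone scaffold protein, was at 3.04, 3.27, 2.8 and 2.62 CPM in β10 and 0.426, 0.609, 0.383 and 0.476 CPM in control (log2 fold change 2.62, SE 0.24, adjusted p = 3.32e-07). GAP43, a growth cone protein, was at 1.41, 1.3, 1.88 and 5.45 CPM against 0 to 0.0766 CPM, a ratio of 63.4 (24.4 to 235). LRRC4C, a netrin G ligand, was at 3.46 to 9.65 CPM against 0.0388 to 0.392 CPM. SLITRK3 had 1, 4, 1 and 9 counts in β10 and 0 in control, so at least 1.34-fold higher. NLGN3, a neuroligin, was at 0.204 to 0.499 CPM against 1.74 to 4.14 CPM (-2.64). The other 6 lower genes were L1CAM, SNAP25, SYT11, GRIN2B, CNTNAP3 and CNTNAP1. CNTNAP1 was lower by -1.56, by -1.21 and uncalled with the library set as a term, and lost its call without β10 library 3 or control library 3 or 4 (-1.73 to -1.37). GRIN2B was at -1.83 and overlapped between lines, and it was -1.10 and uncalled with the set term. Of 39 ephrin, semaphorin, netrin and slit genes, 1 was higher and 3 were lower (median -0.23). SLIT3, an axon repellent, was at 0.458, 0.192, 0.458 and 0.0832 CPM against 5.27, 2.61, 4.71 and 2.51 CPM (-3.65), and SEMA4B at 13.1 to 24.2 CPM against 41.4 to 94.3 CPM (-1.85). EFNB3, an ephrin, was lower by -1.95 and lost its call without control library 3 (-1.25). PLXNA2, a semaphorin receptor, was at 4.24, 2.93 and 3.87 CPM in β10 libraries 1 to 3 and at 0 in library 4, within the control range of 0 to 0.383 CPM.

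Of 24 SOX, FOX and GATA genes tested 0 were higher and 3 were lower (SOX9, SOX4, FOXE1), with a median of -0.22. SOX4, a transcription factor of progenitor cells, was at 0.541, 0.288, 0.0509 and 0.0832 CPM in β10 and at 3.72, 4.66, 4.71 and 5.71 CPM in control (log2 fold change -4.23, SE 0.55, adjusted p = 3.17e-05). Of 31 HOX genes 3 were higher and 0 lower (median -0.15), and the 3 belong to the HOXD cluster on chromosome 2. HOXD9 was at 11.6, 25.7, 40.9 and 15.3 CPM in β10 and at 4.92, 7.35, 10.1 and 7.05 CPM in control. With the library set as a term neither HOXD9 nor HOXD3 was called. Without β10 library 3 neither was called, and HOXD3 was not called without control library 2 (lowest values 1.27 and 1.32). HOXD11 had 6 to 12 counts against 0 to 2, a ratio of 9.13 (3.25 to 35.5).

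Cancer-testis antigens, which are normally restricted to the germ line, had the highest median of all lists (0.91), with 3 of 16 higher and 1 lower. MAGEA1 was at 47.5, 49.4, 41.6 and 25.5 CPM in β10 and at 0.737, 1.96, 0.996 and 2.25 CPM in control (log2 fold change 4.79, SE 0.47, adjusted p = 9.35e-07). The more abundant MAGEA4 was at 349 to 917 CPM and 462 to 603 CPM (0.16, adjusted p = 0.648), and MAGEA6 at 142 to 262 CPM and 50.1 to 118 CPM (0.93, adjusted p = 0.021, under the fold threshold). GAGE1 had 0, 1, 2 and 1 counts in β10 and was at 4.06 to 11.6 CPM in control, a control to β10 ratio of 182 (70.9 to 671). CTAG1A and CTAG1B are near-identical copies whose counts cannot be assigned with certainty. In CTAG1A and CTAG1B, β10 library 1 was at 0.541 and 0.624 CPM, below every control library, and β10 libraries 2 to 4 were at 4.2 to 11.8 CPM. The difference was -0.69 for CTAG1A and -0.65 for CTAG1B within the positive set. CTAG1A was called only with β10 library 1 left out among 8 single libraries (1.80 to 2.89), and CTAG1B only with β10 library 1 or control library 1 left out (1.65 to 2.68).

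Of 21 collagen genes 3 were higher and 1 was lower (median -0.20). COL16A1 was at 4.04, 4.52, 9.16 and 3.91 CPM in β10 and at 1.47, 0.435, 1.84 and 0.908 CPM in control. COL4A5 and COL4A6, which lie next to each other on chromosome X, were higher by 2.07 and 2.06 with overlapping libraries, and by 2.71 and 3.17 within the positive set. COL4A6 was at 0.96 and not called within the negative set, and COL4A5 at 1.37 and not called without both first libraries. The COL4A5 call was lost without control library 1, 2 or 4 (1.62 to 2.58). COL13A1, a transmembrane collagen, was at 0.0416 to 0.874 CPM against 1.69 to 11.4 CPM (-3.31). The COL13A1 difference was -2.05 within the positive set and -4.67 within the negative set, and it was not called in the fit of both lines alone. FN1, the fibronectin gene, was the 1 lower gene of 23 mesenchymal genes (0 higher, median 0.19). It was at 2.04 to 5.74 CPM against 8.27 to 20.5 CPM (-1.68), was -1.37 with the library set as a term, and lost its call without β10 library 2, 3 or 4 or control library 3 (-1.97 to -1.21). Of 20 epithelial genes KRT8, a keratin of simple epithelia, was higher and CLDN4, a tight junction claudin, was lower (median -0.32). KRT8 was at 1147, 1809, 2872 and 1060 CPM in β10 and 735, 579, 431 and 564 CPM in control, a difference of 1.58 that was 1.18 with the set term and 1.23 without β10 library 3. CLDN4 was at 0.458 to 1.12 CPM against 1.21 to 6.05 CPM. Of 26 protease and inhibitor genes 0 were higher and 1 was lower, ADAM8, a membrane metalloprotease (median -0.37, ADAM8 -1.71). ADAM8 was not called without both first libraries.

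Of 38 voltage-gated and TRP channel genes 1 was higher and 4 were lower, with a median of -0.47. TRPM2 was the higher gene. CACNA1A, the pore of P/Q-type calcium channels, was at 0.0416, 0.048, 0.458 and 0.0832 CPM in β10 and at 2.25, 2.61, 3.95 and 2.42 CPM in control (-4.16, called in both sets). CACNA1B, the pore of N-type channels, was at 0.541 to 1.32 CPM against 2.33 to 12 CPM (-2.48). The CACNA1B difference was -2.63 within the positive set but -1.20 within the negative set. KCND1, a potassium channel, was at 1.54 to 2.98 CPM against 6.1 to 14.8 CPM (-1.91). SCN9A, a sodium channel, was lower by -2.66 with overlapping libraries. In endosomal recycling, where 39 genes were tested, 0 were higher and 2 were lower (median -0.03). EHD3, an ATPase of recycling endosomes, was at 0.166, 0.24, 0.204 and 0.166 CPM in β10 and at 8.53, 7.53, 11.6 and 6.61 CPM in control (log2 fold change -5.43, SE 0.31, adjusted p = 5.57e-10). Its libraries were tight in both lines. RAB11FIP4, a RAB11 effector, was lower by -2.13 and lost its call without β10 library 3 or 4 or control library 3 (-2.42 to -1.40).

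Metabolic and housekeeping lists showed how far a list could move with the library sets. For 53 cytosolic ribosomal protein genes 0 were higher and 0 lower, but the median was 0.85 and 52 were above 0. The median was 0.04 within the positive set, 0.59 within the negative set and 0.27 with the library set as a term. Without both first libraries it was 1.38, with 18 genes higher. For 40 nuclear oxidative phosphorylation genes the median was 0.67 with 0 calls, 0.07 and 0.42 within the sets, and 14 genes were higher without both first libraries. RPLP0, a ribosomal protein, was at 2256, 4412, 7031 and 3666 CPM in β10 and at 3424, 2476, 2845 and 2205 CPM in control, so β10 library 1 lay within the control range and control library 1 was the highest of its line. For 13 mitochondrially encoded genes the median was 0.13 and for 29 cholesterol and fatty acid synthesis genes 0.57, with 0 calls in each. For 17 replication-dependent histone genes, whose transcripts mostly lack a poly(A) tail, the median was -0.38 (0 calls). Of 33 hypoxia and glycolysis genes 0 were higher and 3 were lower, the glucose transporter gene SLC2A3 and the hormone genes ADM and STC2 (median -0.15). SLC2A3 was at 17.3 to 23.6 CPM against 49.6, 43.8, 140 and 32.9 CPM and lost its call without control library 3. ADM was at 26 to 31.7 CPM against 97.4, 120, 27.6 and 132 CPM, lost its call without control library 4 (-1.45) and overlapped in control library 3. STC2 (-1.67) lost its call without β10 library 4 or control library 3 (-1.86 to -1.20).

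Of 29 NRF2 and iron genes 2 were higher (AKR1C3, FTH1) and 1 was lower (SLC7A11), with a median of -0.06. FTH1, ferritin heavy chain, was at 372, 804, 2350.1 and 633 CPM in β10 and 492, 281, 334 and 288 CPM in control. Its difference of 1.58 was 0.30 within the positive set, 1.06 with the set term, and lost its call without β10 library 2 or 3 or control library 2, 3 or 4 (0.81 to 1.91). SLC7A11, the cystine transporter, was lower by -2.15, by -1.59 and uncalled with the set term, and lost its call without β10 library 2, 3 or 4 or control library 2, 3 or 4 (-2.40 to -1.54). Of 32 stress response genes 1 was higher, SDF2L1, an endoplasmic reticulum protein, and 0 were lower (median -0.11). SDF2L1 was at 2.05, at 1.27 and uncalled with the set term, and lost its call without β10 library 2 or 3 or control library 2, 3 or 4 (1.21 to 2.46). For the lists above, genes with no count in 1 line were also set to their bound, which left each median printed here unchanged.

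**Figure D4:**
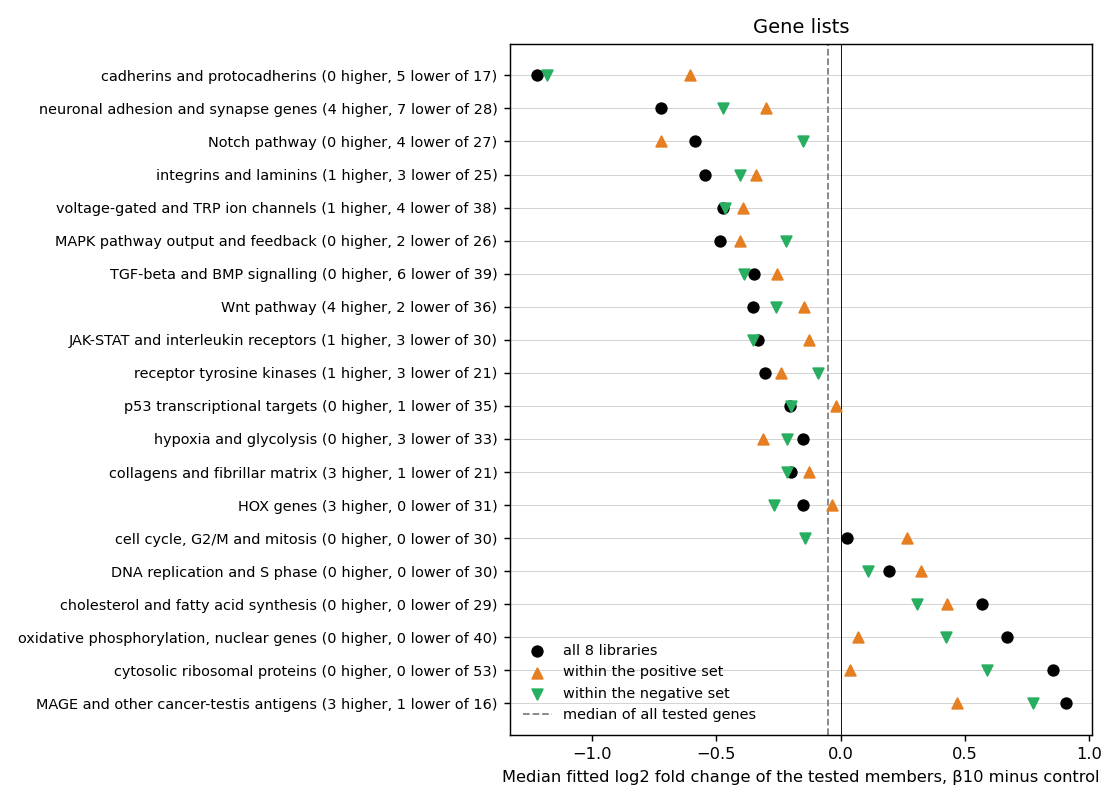
Median fitted log2 fold change of β10 minus control (x axis) over the tested members of 20 gene lists (y axis, with the numbers called higher and lower of those tested). Black circles use all 8 libraries, triangles the positive set and inverted triangles the negative set, and the dashed line is the median of all genes tested (-0.05). Ribosomal protein genes go from 0.85 to 0.04 within the positive set, and cadherins stay below 0 in each.

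β10 was next compared with the mean of the other 4 clones (Δ133p53α1, α2, α8 and β5), which share H1299 as parent and an introduced isoform. In this comparison 78 genes were higher (0.426% of the genes tested) and 34 lower (0.186%). With β10 library 4 left out, 22 were lower. The genes named here were chosen among those called in the same direction against control, and both comparisons share the β10 libraries. In each of the 20 genes chosen as the 10 highest and 10 lowest, the mean of Δ133p53β5 lay on the β10 side of all 3 Δ133p53α means. Whether β10 and Δ133p53β5 differed was not tested. MAGEA1 was at a mean of 41 CPM in β10, 23.9 CPM in Δ133p53β5 and 0.176 to 0.225 CPM in the Δ133p53α clones, and POU3F3 at 1.18, 1.25 and 0 to 0.0744 CPM. MAGEA1 was higher than in the other clones by 5.95 on the log2 scale (adjusted p = 1.56e-10), although the highest of their libraries reached 26.5 CPM, above the lowest β10 library. POU3F3, a neural POU-domain transcription factor, was at 1.62, 1.44, 0.611 and 1.04 CPM in β10, at 0.131 to 0.383 CPM in control and at 0 to 1.31 CPM in the other clones (4.81 against the clones, 2.20 against control). PANTR1, a non-coding RNA from the same locus, was at 0.25 to 0.748 CPM in β10 and at 0 to 0.0435 CPM in control (4.35 against the clones). LRRK1, a kinase of membrane trafficking, was at 2.09 to 5.66 CPM against 0.0775 to 1.04 CPM in control and 0 to 4.12 CPM in the clones (3.96).

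PNPLA4, AKR1C3, OR51B5, TMEM71 and SLCO1B3 were also higher in β10 than in the other clones, by 4.91, 3.31, 3.77, 3.58 and 3.27. SLC39A4, a zinc importer, was higher by 3.67 against the clones and by 1.91 against control, but against control it was not called with the set term (1.21), nor without β10 library 3 or control library 2 or 4 (1.27 to 2.24). STAT6 and INSR, by 2.09 and 2.03, were above the mean of the clones too, but neither was compared with Δ133p53β5 alone. The study reported STAT6 as raised in its Δ133p53β lines against control. EHD3 was lower than in the other clones by -3.33 (SE 0.28, adjusted p = 3.02e-07), where the mean of EHD3 was 3.04, 5.98 and 3.34 CPM in the Δ133p53α clones but 0.254 CPM in Δ133p53β5, against 0.194 CPM in β10. PCSK5, a proprotein convertase, had 1, 1, 0 and 0 counts in β10 and was lower by -5.53. FTCD, an enzyme of folate and histidine metabolism, was at 0 to 0.208 CPM in β10, 8.43 to 19.3 CPM in control, and at a mean of 7.44, 8.17 and 11.4 CPM in the Δ133p53α clones and 0.516 CPM in Δ133p53β5 (-5.35). HSD17B8, a mitochondrial steroid dehydrogenase, was at 0.166 to 0.458 CPM against 6.05 to 13.8 CPM in control (-3.77 against the clones), and EPHX2, which hydrolyses epoxy fatty acids, had 1 count in all of β10 (-4.82) and a mean of 0.0607 CPM in Δ133p53β5 against 0.654 to 1.14 CPM in the Δ133p53α clones. The remaining named genes, CDX2, FAM131B, ZNF521, TGFB1I1 and IL7R, were lower by -4.52, -4.32, -4.24, -3.78 and -3.57. CDX2 and FAM131B were at a mean of 0.0143 and 0.0894 CPM in Δ133p53β5, near the 0.012 CPM of both in β10. The call of CDX2 against control was lost without control library 2.

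Neighbouring genes were examined after their values had been seen, as a description with no test. At 19 places at least 3 adjacent tested genes were called in the same direction, 12 higher (37 genes) and 7 lower (22 genes). GALNT14, EHD3 and XDH follow each other on chromosome 2 between 30910467 and 31414742, and all fell, with 0 to 1, 4 to 5 and 0 to 1 counts per library in β10 and 130 to 179, 153 to 302 and 6 to 36 in control. STC1, NEFM and NEFL on chromosome 8 between 23841929 and 24956721 were lower by -2.93, -3.97 and -3.91. NEFL, the light neurofilament chain, had 14, 9, 9 and 0 counts against 122, 117, 166 and 141. GAS6, the ligand of AXL, had 765, 1052, 1295 and 915 counts in β10 and 113, 210, 197 and 204 in control, and was higher together with the overlapping GAS6-AS1 and the adjacent GAS6-DT. For such overlapping transcripts the assignment of counts is uncertain, since the strand setting of the counting was not given.

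Wider stretches were described in the same way. Over 256 windows of 10 Mb with at least 20 genes at a mean of 1 CPM, the median log2 fold change with the library set as a term ran from -0.61 to 0.64, and it was above 0.4 in 11 windows and below -0.4 in 5. In the first 20 Mb of chromosome 16 the median over 225 genes was -0.41, with 160 genes below 0 and 10 called lower, and -0.61 with the set term, with 212 below 0. Per library, as a median of log2 CPM minus the control mean, it was -0.79, -0.34, 0.10 and -0.59 in β10 and 0.23, 0.02, -0.08 and -0.07 in control. β10 library 3 overlapped the control libraries, and without both first libraries the median was -0.10. The rest of chromosome 16 was at 0.19 over 466 genes. The first 20 Mb were also low in other clones, at -0.66 to -0.50 in Δ133p53β5, -0.82 to -0.13 in Δ133p53α8 and -0.65 to 0.05 in Δ133p53α2, with -0.47 to 0.24 in Δ133p53α1. The median of β10 minus the other clones was 0.03 there.

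On chromosome X from 100 Mb on, the median over 209 genes was 0.53, with 167 above 0, 13 called higher and 4 called lower, IL13RA2 among the latter. It was 0.57 within the positive set, 0.49 within the negative set and 0.50 without both first libraries, and 0.01 over 261 genes in the first 100 Mb. All 4 β10 libraries (0.27 to 0.60) lay above all control libraries (up to 0.08), as did those of Δ133p53β5 (0.54 to 0.58). The 3 Δ133p53α clones were at -0.22 to 0.21. Within this stretch the 71 genes from 150 Mb on, which include MAGEA1, MAGEA4, MAGEA6 and CTAG1A, had a median of 0.78, but 0.35 within the positive set and 1.04 without both first libraries. DNA copy number was not measured.

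**Figure D5:**
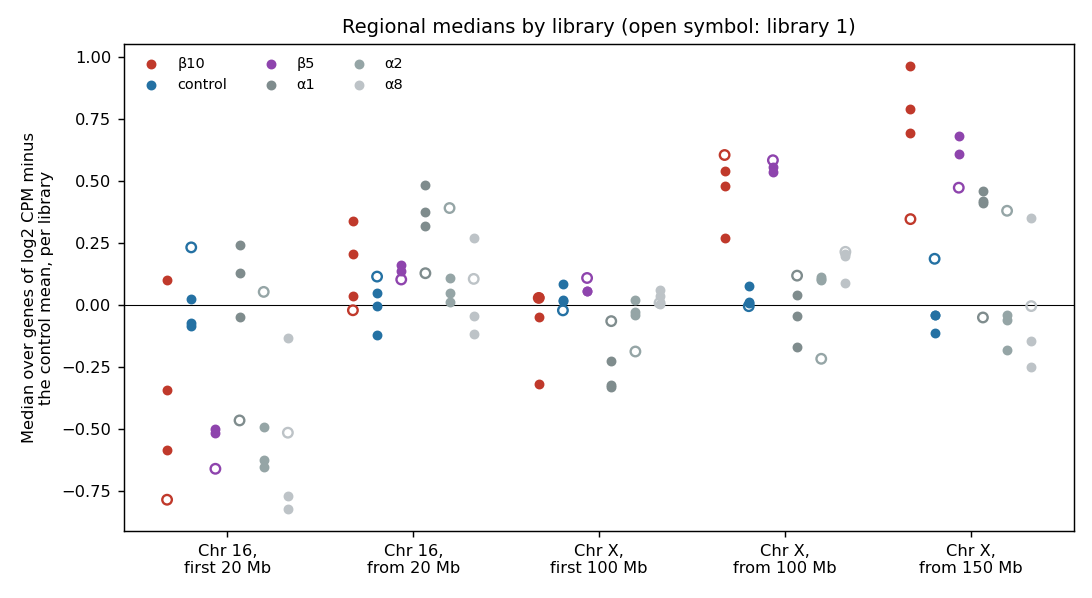
Median over the genes of a region of log2 CPM minus the mean of the control libraries (y axis), 1 point per library, for 5 regions (x axis) and 6 lines by colour, with library 1 of each line as an open symbol. From 100 Mb on chromosome X, the β10 libraries (0.27 to 0.60) and the β5 libraries (0.54 to 0.58) lie above the control libraries. In the first 20 Mb of chromosome 16, β10 spreads from -0.79 to 0.10.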

How the data were processed

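RNA from 6 H1299 lines was sequenced on a DNBSEQ platform as strand-specific poly(A) libraries. The authors trimmed reads with Cutadapt, aligned them with HISAT2 to hg38 and counted them per Ensembl gene with featureCounts, and deposited 1 table of raw counts. Strand and multi-mapping settings of the counting were not given in the sources used here. Groups came from the labels: 23 libraries were analysed, 4 each of clone β10 and the vector control. Column names were matched to labels, 1 column matched no label and was not used, and 1 labelled β10 sample was not analysed here. The lists and the genes were chosen with earlier results of these data known.

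Counts were tested with edgeR 4.0.16 (R 4.3.3; TMM, filterByExpr by line, quasi-likelihood F test, Benjamini-Hochberg adjustment) in 1 model of all 6 lines (18295 genes tested of 60564). The call rule was that of the study's methods, an adjusted p under 0.05 together with a size of at least 1.5 on the log2 scale. The SE is the log2 fold change divided by the square root of F. The library set was the sign of the correlation between a library's deviation and gene length. Fits within sets estimated the spread from all lines and sets, so a lone library was assumed to vary like the others. Ratios of counts carry a 95% counting interval, and a line at 0 was set to a floor of 3 counts per library, both for counting error only. Replicate numbers were not used to pair the libraries. Correlations of the deviations of same-numbered libraries were -0.71 to 0.20. Same-numbered libraries of β10 and control belong to opposite library sets, so these values cannot tell whether the numbers pair them. The closest pair of libraries within a line differed by a chi-square of 18.5 per degree of freedom, so none was counted as a repeat. The scripts were tested on simulated data. An item covered by the rule for named genes is not reported here.

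Named genes were the 15 highest and 15 lowest calls with the same sign in both sets, up to 4 called members of each list by adjusted p, the 6 cell surface genes fixed by name, the 10 highest and 10 lowest against the other clones among genes called in both comparisons, and the 2 most abundant members of each list. Other genes were named after their values were seen: the remaining called list members and those in the neighbouring groups. Alternatives were DESeq2 1.42.0, limma 3.58.1 (voom), sva 3.50.0, other size factors and filters, a fit of both lines alone, a gene length trend, the library set, the replicate block and libraries left out. Gene positions came from GENCODE 44 (GRCh38) and upstream sequences from RefSeq (GRCh38.p14).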

Additional observations from a re-analysis of the deposited data

Results flagged for a closer look

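In 17 of 321 gene and line pairs among the 178 named genes, 1 library stood apart from the other 3 of its line by Dixon's gap ratio. Chance flags about 1 in 20 such groups when they are independent. Genes of the same library are not independent, so the share seen cannot tell chance from a property of a library. In control, library 3 was the lowest for AXL (772 CPM), CDC20 (228 CPM), CDH24 (13.9 CPM), ID1 (27.4 CPM), MAGEA6 (50.1 CPM) and MCM7 (475 CPM), and the highest for FN1 (20.5 CPM) and NLGN3 (4.14 CPM). Control library 1 was the lowest for CTNNB1 (148 CPM) and NETO1 (6.05 CPM) and the highest for RPS16 (2878 CPM). In β10, library 1 was the lowest for ATP5F1A (614 CPM) and the highest for ITGB6 (0.166 CPM), library 3 was the highest for COL16A1 (9.16 CPM), and library 4 was the lowest for FOXE1 (0.582 CPM), ITGB2 (0.125 CPM) and PLXNA2 (0 CPM).

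For the 10 highest and 10 lowest genes against the other 4 clones, among those called in the same direction against control, the level in β10 differed from the mean of those clones by the edgeR test. On the log2 scale the difference was 5.95 for MAGEA1, 4.91 for PNPLA4, 4.81 for POU3F3, 4.35 for PANTR1, 3.96 for LRRK1, 3.77 for OR51B5, 3.67 for SLC39A4, 3.58 for TMEM71, 3.31 for AKR1C3 and 3.27 for SLCO1B3. It was -5.53 for PCSK5, -5.35 for FTCD, -4.82 for EPHX2, -4.52 for CDX2, -4.32 for FAM131B, -4.24 for ZNF521, -3.78 for TGFB1I1, -3.77 for HSD17B8, -3.57 for IL7R and -3.33 for EHD3. These genes were selected on this difference among those called against control, and the β10 libraries are shared by both comparisons.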

How the results depend on the processing

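Against control (322 higher, 544 lower), the counts moved by more than 1.5 times under these settings. The fit of both lines alone gave 146 higher and 283 lower, the negative set 128 and 280, the positive set 144 and 154, and leaving out both first libraries 1103 and 917. A threshold of 1.5-fold on the linear scale gave 747 and 984, the adjusted p alone 773 and 1021, and a mean of at least 1 CPM 299 lower. Leaving out 1 library gave 213 to 643 higher and 336 to 658 lower. Against the other clones (78 higher, 34 lower), a mean of at least 1 CPM gave 41 and 20, a fold of 1.5 gave 119 and 60, the adjusted p alone 120 and 61, DESeq2 56 lower and 1 surrogate variable 66 lower, and leaving out 1 library gave 57 to 102 and 22 to 37. Within the positive set CTAG1A and CTAG1B changed sign (-0.69 and -0.65). With the replicate block 249 genes were higher and 493 lower against control, and whether the numbers pair the libraries could not be told. DESeq2 (468, 583), RLE size factors (360, 511), no filter (379, 615), voom (266, 539), 1 surrogate variable (286, 765), the length trend removed (349, 511) and the set with the block (276, 647) stayed within 1.5 times of either count. The cause of these shifts was not tested. Library totals were 21531599 to 25381731 counts, and calls of genes with a few counts in 1 line rest on few reads.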
